A study of Mus musculus with 6 samples.

Results

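Mitochondrial ribosomal proteins are encoded by nuclear genes whose symbols begin with Mrpl for the large subunit and Mrps for the small subunit. Every gene of the deposited expression table whose symbol is Mrpl or Mrps followed by a number, with an optional letter a to c, was taken as a member. That gave 78 genes, 49 named for the large subunit and 29 for the small one, of 24532 genes in the table. They were carried by 100 of 36780 transcripts, and the gene of Mrpl58 had a further transcript listed under its older symbol, Ict1, which was summed in. All 78 passed the filter on low counts. Bulk mRNA sequencing had been run on the nucleus accumbens core, a striatal region involved in reward and motivation, of male wild-type mice. The mice were described as adolescent, with an age of postnatal day 35 to 55. That range is not given here as the age at tissue collection, which followed 27 days of drinking. There were 3 ethanol libraries and 3 control libraries. The protocol gave contextual fear conditioning, then 6 intraperitoneal injections of 20% v/v ethanol over 6 hours, with a first dose of 1.8 g/kg and later doses of 1.2 g/kg, followed by extinction. Both groups then drank ethanol every other day for 27 days, and tissue was taken 24 hours later, so the controls were not naive to ethanol. What the controls were injected with was not stated. The treatment field read the same in all 6 libraries, so the groups rest on the sample titles and the column headers. No strain was given, and nothing stated that the libraries came from separate animals, so the p-values measure the spread between these libraries, which may be technical.

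The mitochondrial ribosome translates the few messenger RNAs transcribed from mitochondrial DNA, all of which encode subunits of the respiratory chain and ATP synthase. Its ribosomal RNAs come from the mitochondrial genome, while all its proteins are made in the cytosol and imported. In neurons, which depend heavily on oxidative phosphorylation, loss of this translation system impairs respiration. A few symbols do not match the place of the protein: Mrps30 and Mrps18a sit in the large subunit, and Mrps36 is a component of the 2-oxoglutarate dehydrogenase complex. The symbols were kept as the grouping here. The RNAs that these ribosomes translate, which are transcripts of mitochondrial DNA, were not analysed here.

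The members lie on 17 chromosomes, with 11 on chromosome 11, and some start close to a neighbouring gene that runs the other way. The RefSeq promoter windows of 4 members are shown because they hold the letters of NRF1, ETS factors and YY1 between them, and one window holds none of these. Each runs 5′ to 3′ from 250 bases before to 50 bases after the start, on the GRCm38.p6 assembly. Mrps11, a small-subunit protein, has its window at chr7:78782881-78783180 on the plus strand. Mrpl9, a large-subunit protein, has its window at chr3:94443086-94443385 on the plus strand. Mrpl33, also of the large subunit, has its window at chr5:31613701-31614000 on the plus strand. Mrpl47, a large-subunit protein and the member with the smallest p-value below, has its window at chr3:32736706-32737005 on the minus strand. Capitals mark a match to the NRF1, ETS or YY1 letters.
Mrps11: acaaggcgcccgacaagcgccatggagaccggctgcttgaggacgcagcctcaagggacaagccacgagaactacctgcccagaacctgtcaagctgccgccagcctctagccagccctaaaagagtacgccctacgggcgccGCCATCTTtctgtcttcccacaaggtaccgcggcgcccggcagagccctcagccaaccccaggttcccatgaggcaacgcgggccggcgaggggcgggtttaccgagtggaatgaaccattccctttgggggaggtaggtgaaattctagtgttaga
Mrpl9: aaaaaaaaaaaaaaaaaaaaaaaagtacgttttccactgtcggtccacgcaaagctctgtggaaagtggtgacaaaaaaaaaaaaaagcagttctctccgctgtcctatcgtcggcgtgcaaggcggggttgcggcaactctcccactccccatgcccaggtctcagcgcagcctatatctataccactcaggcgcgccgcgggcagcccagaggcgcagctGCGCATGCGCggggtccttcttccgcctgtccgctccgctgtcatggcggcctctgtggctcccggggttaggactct
Mrpl33: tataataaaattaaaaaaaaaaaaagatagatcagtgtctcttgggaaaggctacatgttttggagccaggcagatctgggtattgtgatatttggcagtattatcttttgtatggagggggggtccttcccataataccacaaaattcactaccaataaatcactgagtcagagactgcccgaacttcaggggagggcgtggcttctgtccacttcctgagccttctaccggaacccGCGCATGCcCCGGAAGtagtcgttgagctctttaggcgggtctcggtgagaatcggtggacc
Mrpl47: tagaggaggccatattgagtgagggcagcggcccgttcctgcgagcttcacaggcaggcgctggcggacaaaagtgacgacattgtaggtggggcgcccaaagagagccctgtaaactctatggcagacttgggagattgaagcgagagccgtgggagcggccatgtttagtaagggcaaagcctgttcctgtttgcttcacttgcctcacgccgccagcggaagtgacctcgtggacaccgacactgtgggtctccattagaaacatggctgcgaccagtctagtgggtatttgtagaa

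The motifs searched on both strands were gcgcatgc for NRF1, ccggaag for ETS factors and aagatggc for YY1, and the ETS and YY1 letters can overlap at aag. NRF1 and the ETS factor GABPA (also named NRF2) are known activators of nuclear genes for mitochondrial proteins. All shares here are of genes with a window, and a gene counted if any of its windows held the letters. Of the 69 members with a window, 26 (37.7%) held the ETS letters, against 17.4% of tested genes and 9.93% of all genes. The NRF1 letters were in 8 members (11.6%), against 5.39% of tested genes and 3.05% of all genes. The YY1 letters were in 12 members (17.4%), against 4.62% of tested genes and 3.19% of all genes. At least one of these motifs was in 38 members (55.1%), against 25.0% of tested genes and 14.9% of all genes. The GC box gggcgg was in 34 members (49.3%), against 65.9% of tested genes and 38.2% of all genes. The TATA box tataaa was in 5 members (7.25%), against 9.22% of tested genes and 15.7% of all genes. No test of these differences was made. In the windows above, the YY1 letters of Mrps11 begin 107 bases before the start and read on the antisense strand. The NRF1 letters of Mrpl9 begin 28 bases before the start and again, on the antisense strand, 26 bases before it. In Mrpl33 the NRF1 letters begin 12 bases and the ETS letters 3 bases before the start. Of the members, 39 had a window whose start lay within 50 bases of the start in the deposited table. Members with the ETS letters had a median level of 40.5 FPKM and a median log2 fold change, ethanol over control, of -0.05, and the 43 members without them had 28.9 FPKM and -0.06. A match describes letters and does not show that a factor binds there.

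The members were expressed well above the typical gene of this tissue. Per length, the median member level was 32.6 FPKM for the large subunit and 30.2 FPKM for the small subunit, against 5.79 FPKM over all tested genes. Only 2 members lay under that last value, and 69 of 78 lay between 10 and 100 FPKM, although the highest mean level was 37.8 times the lowest. Mrps21, a small-subunit protein with a short transcript of 407 bases, had the highest mean. It stood at 83.7, 167 and 94.6 FPKM in the ethanol libraries, against 125, 136 and 152 FPKM in the control libraries. Mrpl12 is the protein of the flexible stalk that recruits translation factors, and it also binds the mitochondrial RNA polymerase Polrmt. It stood at 87.2, 143 and 83.8 FPKM in the ethanol libraries, against 102, 125 and 134 FPKM in the control libraries. In both genes the control values lay inside the ethanol range. Mrpl52 and Mrpl20, large-subunit proteins, followed with means of 108 and 100.1 FPKM. The next small-subunit genes were Mrps12, a protein of the decoding centre, at 65.0 FPKM and Mrps18a at 63.8 FPKM. The lowest members were Mrpl1, a protein of the large subunit's other stalk, at 3.35 FPKM and Mrpl35, a large-subunit protein, at 5.50 FPKM. The lowest of the small-subunit genes were Mrps25 at 11.6 FPKM and Mrps30 at 13.6 FPKM. Of the leading genes, Mrps21 exceeded Mrpl12 in 5 of 6 libraries, the exception being ethanol 1, and no test of that order was made.

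**Figure D1:**
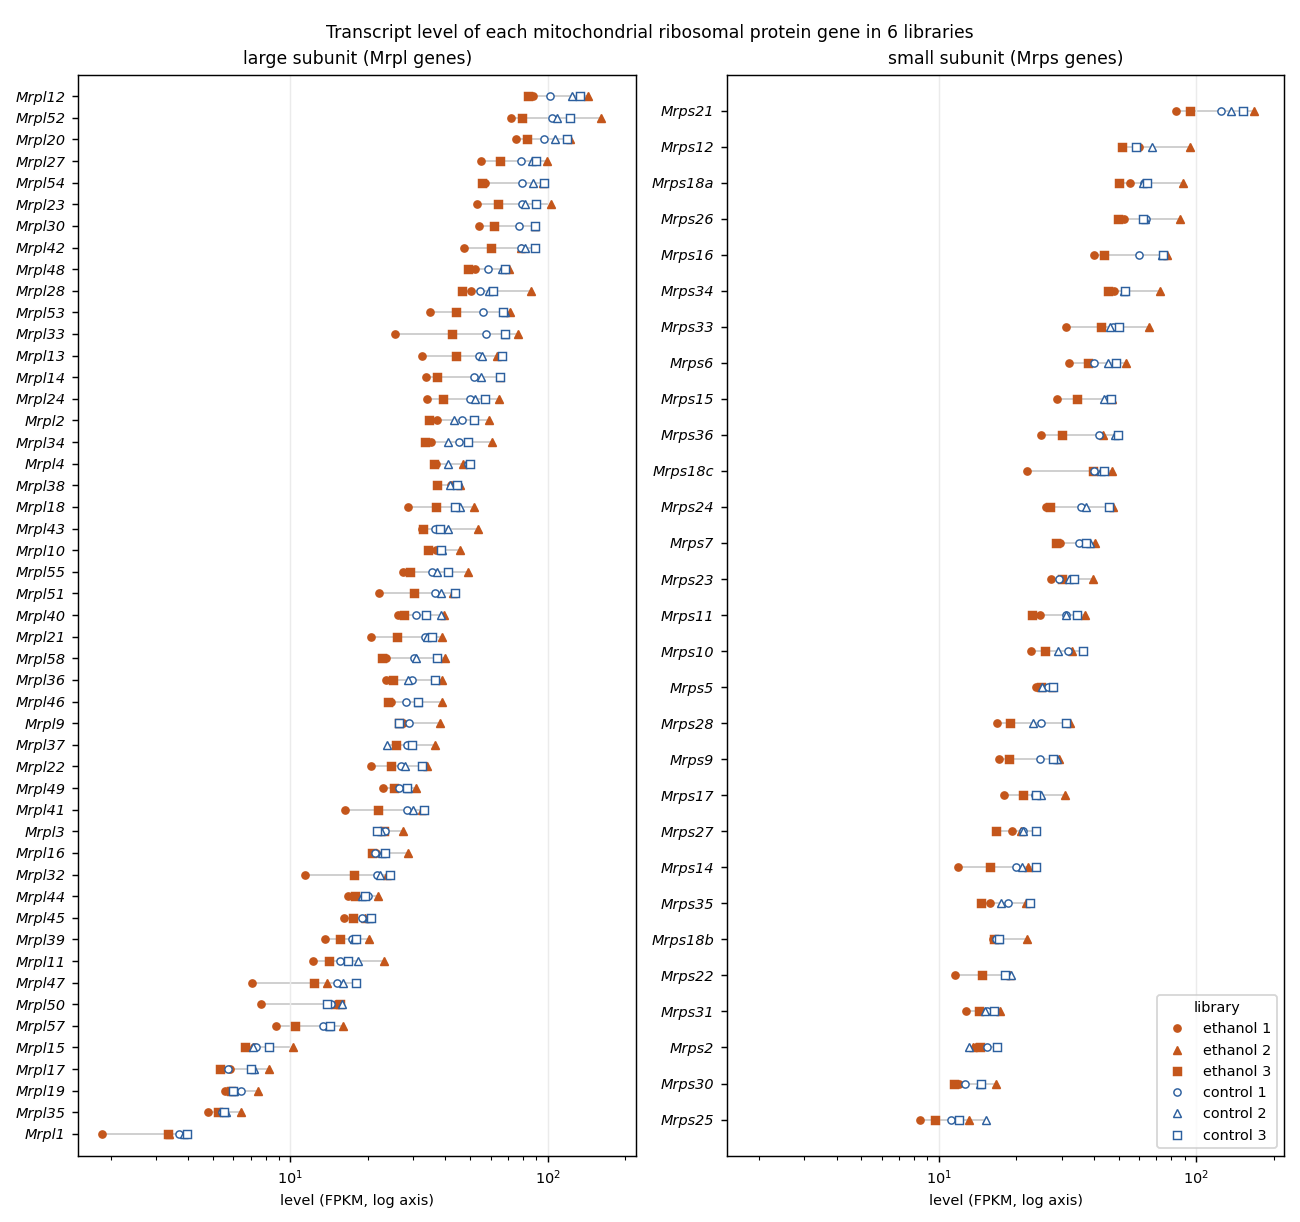
FPKM on a log axis in each of the 6 libraries for the 78 members, one row per gene in order of mean level, split into large-subunit and small-subunit genes; filled symbols are ethanol, open symbols control, and grey lines join the lowest and highest library. Mrpl12 and Mrps21 lie at the top of their panels, and ethanol 2 is the rightmost symbol for 57 genes.

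Most members had a single transcript in the table, 64 of 78, and Mrps23 had the most with 6. One isoform held most of the expression in Mrps23, at 87.9%. Mrpl58, a peptidyl-tRNA hydrolase that rescues stalled mitochondrial ribosomes and is built into the large subunit, was split between its 2 listed transcripts at 52.1% and 47.9%. Mrps10, a small-subunit protein, was split at 52.3% and 43.5% between its leading transcripts. The share of the first was 48.7%, 45.5% and 52.1% in the ethanol libraries, against 36.1%, 76.5% and 55.5% in the control libraries, so the control libraries spanned the ethanol ones. Mrpl55, a large-subunit protein, was spread over 3 transcripts at 43.7%, 32.1% and 21.3%. The counts are estimates divided among isoforms, and these shares carry that uncertainty.

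The members varied together from library to library, and the main division ran inside the ethanol group rather than between the groups. To compare libraries, counts were scaled by the trimmed mean of M-values (TMM) and are given per 1000000 reads (CPM). Summed over the 78 members, the level was 3180, 4839 and 3122 CPM in ethanol 1, 2 and 3, against 3619, 3777 and 4058 CPM in control 1, 2 and 3. Ethanol 2 was above, and ethanol 1 and 3 below, all control libraries. The means were 3714 ± 975 CPM in ethanol and 3818 ± 222 CPM in control (SD, n = 3 each), a gap far smaller than the ethanol spread. The same sums as a share of raw reads were 0.296%, 0.462% and 0.321% in the ethanol libraries, against 0.375%, 0.391% and 0.413% in the control libraries.

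Both subunits showed that order. The large-subunit sum was 2080, 3184 and 2054 CPM in the ethanol libraries, against 2375, 2475 and 2675 CPM in the control libraries. The small-subunit sum was 1099.8, 1655 and 1068 CPM in the ethanol libraries, against 1244, 1302 and 1383 CPM in the control libraries. Their ratio hardly moved, at 1.89, 1.92 and 1.92 in the ethanol libraries, against 1.91, 1.90 and 1.93 in the control libraries. The ratio averaged 1.91 ± 0.019 in ethanol and 1.91 ± 0.018 in control (SD, n = 3 each).

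Gene by gene, ethanol 2 was the highest of the 6 libraries in 69 of 78 members (88.5%), against 24.1% of all tested genes. By the deposited FPKM, which use the authors' own scaling of libraries, ethanol 2 was the highest in 57 members and control 3 in 18. The lowest library by CPM was ethanol 1 in 37 members and ethanol 3 in 32. Ethanol 2 lay above all 3 control libraries in 69 members, against 35% of all tested genes, and ethanol 1 and 3 both lay below all of them in 52 members, against 20.1%. Both held at once in 45 members (57.7%), against 7.23% of all tested genes. The median member deviated from its own mean by -0.23, 0.37 and -0.25 on the log2 scale in the ethanol libraries, against -0.02, 0.02 and 0.15 in the control libraries. For all tested genes these medians stayed within 0.02 of 0. The 9 members in which ethanol 2 was not the highest were Mrpl1, Mrpl42, Mrpl47, Mrps2, Mrps10, Mrps14, Mrps25, Mrps27 and Mrps36, named after their values were seen.

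**Figure D2:**
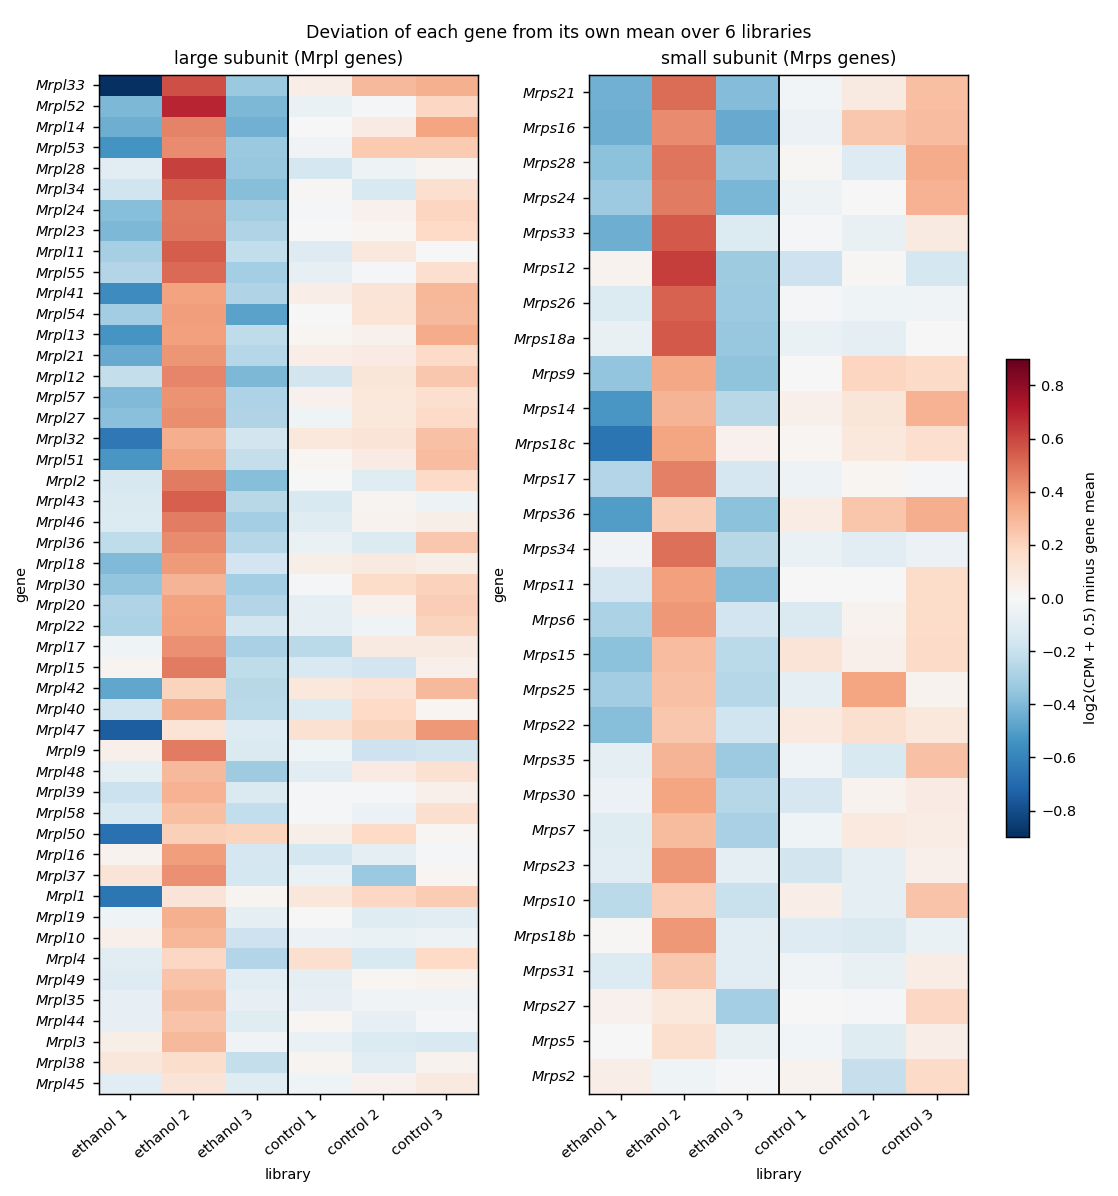
Log2 CPM deviation of each member from its own mean over 6 libraries, one row per gene and one column per library, ethanol libraries left of control libraries, with red above and blue below the mean. The ethanol 2 column is above 0 in 77 of 78 members, and the ethanol 1 and ethanol 3 columns are above 0 in 11 and 3.

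Mrpl33 and Mrpl47 had the largest spreads over the 6 libraries among the large-subunit genes. Mrpl33 stood at 15.6, 45.2 and 23.8 CPM in the ethanol libraries, against 31.3, 36.8 and 37.6 CPM in the control libraries. Its ethanol values lay on both sides of a narrow control range. Among the small-subunit genes the largest spreads were those of Mrps33 and Mrps18c. Mrps33 stood at 43.0, 86.0 and 53.7 CPM in the ethanol libraries, against 58.0, 55.7 and 61.7 CPM in the control libraries. Mrps18c stood at 14.5, 29.9 and 23.9 CPM in the ethanol libraries, against 23.5, 24.8 and 25.9 CPM in the control libraries. In both genes ethanol 2 was the highest library and ethanol 1 the lowest. Mrps2, a small-subunit protein, did not follow, with 38.1, 35.6 and 36.0 CPM in the ethanol libraries, against 37.4, 31.5 and 41.3 CPM in the control libraries.

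The SD of log2 CPM was larger among the ethanol than among the control libraries in 77 of 78 members, the exception being Mrps2, against 74.1% of all tested genes. Its median over the members was 0.39 in ethanol and 0.11 in control. Over all tested genes it was 0.28 in ethanol and 0.16 in control. Among the 7724 tested genes with a mean CPM inside the members' range, the SD was larger in ethanol for 83.5%, and ethanol 2 was the highest library for 27.0%. The fewest reads behind a member in a library were 481, at which counting error alone is 0.066 on the log2 scale. That is small beside the median ethanol SD but not beside the median control SD. It is the largest counting error of any member and not a typical one, since most members had more reads.

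**Figure D3:**
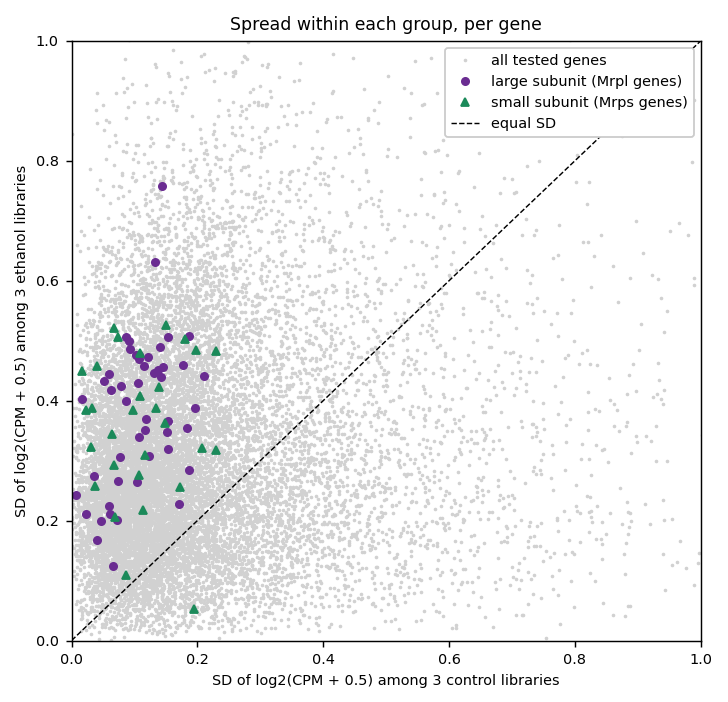
SD of log2 CPM among the 3 ethanol libraries against that among the 3 control libraries, for the 78 members by subunit and, in grey, for all tested genes. The axes end at 1, beyond which 316 tested genes lie, and 77 of 78 members lie on the side of the larger ethanol SD.

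Ethanol was compared with control in edgeR's quasi-likelihood test over 15774 genes. No member passed an adjusted p of 0.05 with Benjamini-Hochberg adjustment, and 0% of all tested genes did in either direction. No member reached an unadjusted p under 0.05, against 10.7% of all tested genes. DESeq2 called 151 genes, with 0 members among them, and limma-voom called 0. The member log2 fold changes, ethanol over control, ran between -0.47 and 0.28, with a median of -0.05, against a median of 0.02 over all tested genes. Their median SE was 0.21. In all, 47 of 78 members (60.3%) were on the lower side in ethanol, against 47.3% of all tested genes. The median was -0.04 for the large subunit and -0.06 for the small subunit.

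Mrpl47, which lies at chr3:32727497-32736755 and overlaps the genes Actl6a and Ndufb5, had the smallest p among the members. It stood at 8.19, 15.3 and 12.9 CPM in the ethanol libraries, against 15.5, 16.2 and 18.6 CPM in the control libraries. All its ethanol libraries lay under its control libraries, which held for no other member and for 8.41% of all tested genes. Its log2 fold change was -0.47 (SE 0.24, edgeR adjusted p = 0.504). Mrps36 at chr13:100735940-100744659 stood at 23.5, 39.2 and 25.8 CPM in the ethanol libraries, against 35.1, 39.9 and 42.2 CPM in the control libraries. The groups overlapped in ethanol 2, and the log2 fold change was -0.41 (SE 0.21, edgeR adjusted p = 0.516). Mrpl42, a large-subunit protein, stood at 41.5, 66.1 and 48.4 CPM in the ethanol libraries, against 61.3, 62.8 and 70.5 CPM in the control libraries, a log2 fold change of -0.32. Mrpl1 stood at 8.44, 14.7 and 13.7 CPM in the ethanol libraries, against 14.6, 15.4 and 15.9 CPM in the control libraries, also -0.32. In both, ethanol 2 lay among the control libraries and the other ethanol libraries lay below them.

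The other members with the smallest p-values stood higher in ethanol. Mrpl9 at chr3:94443336-94448708, whose promoter window with the NRF1 letters is given above, stood at 57.6, 77.3 and 51.0 CPM in the ethanol libraries, against 54.2, 49.0 and 49.8 CPM in the control libraries. Its log2 fold change was 0.28 (SE 0.19, edgeR adjusted p = 0.592), and control 1 lay between ethanol 1 and 3. Mrpl3, a large-subunit protein near the peptidyl transferase centre, stood at 45.0, 53.1 and 42.3 CPM in the ethanol libraries, against 41.6, 39.8 and 39.4 CPM in the control libraries. It was the single member whose ethanol libraries all lay above the control libraries, as 9.35% of all tested genes did, with a log2 fold change of 0.22. Mrpl37, of the large subunit, stood at 56.3, 69.0 and 46.3 CPM in the ethanol libraries, against 49.7, 41.0 and 52.5 CPM in the control libraries. Mrps18b, of the small subunit, stood at 22.4, 29.2 and 20.6 CPM in the ethanol libraries, against 20.4, 20.3 and 21.3 CPM in the control libraries. Ethanol and control overlapped in both of these genes.

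**Figure D4:**
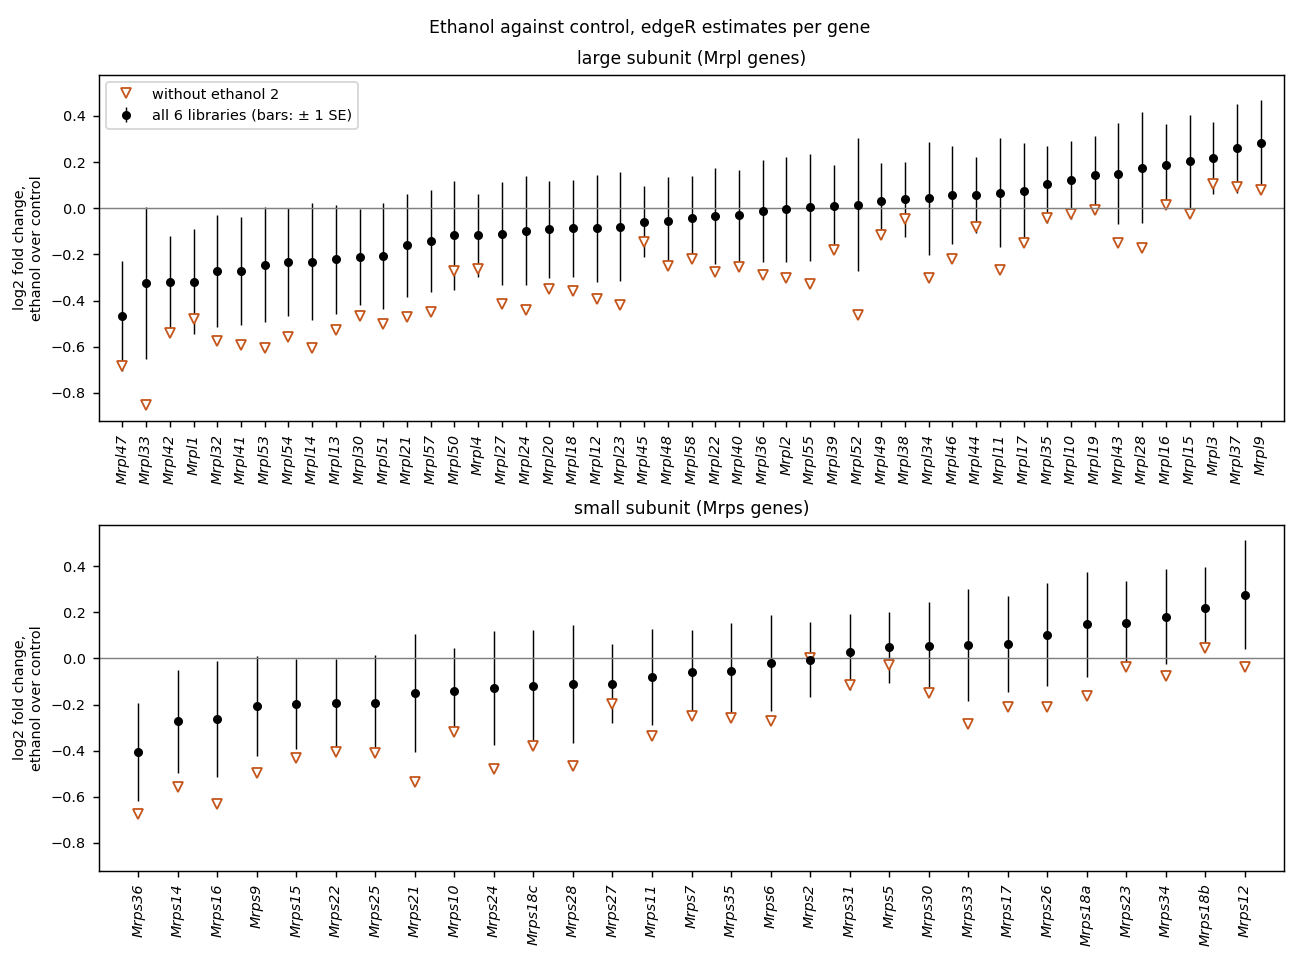
Log2 fold change, ethanol over control, for each of the 78 members; black points with bars of 1 SE are edgeR's fit of all 6 libraries, and open triangles are the fit without ethanol 2. With all libraries the values run between -0.47 and 0.28, and without ethanol 2 all but 6 members lie under 0.

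Where the members' fold changes lay depended on which libraries were in the fit, most of all on the ethanol ones. Without ethanol 2, 72 of 78 members were on the lower side in ethanol, against 51.4% of all tested genes, and their median log2 fold change was -0.28, against -0.01 over all tested genes. For transcripts up to 1043 bases, that median was -0.41 in the members and -0.42 in all tested genes. For longer transcripts it was -0.17 in the members and 0.02 in all tested genes, which were not matched in length above that cut. Cytosolic ribosomal protein genes had -0.38 and nuclear genes of oxidative phosphorylation -0.47. In that fit 31 members had an unadjusted p under 0.05 and a lower level, against 10.2% of all tested genes, and 0 had one with a higher level. None was called after adjustment, although edgeR then called 0.0628% of all tested genes lower and 1.26% higher. The smallest adjusted p of a member was 0.0667, for Mrps36, with a log2 fold change of -0.68. Mrpl33 had the lowest value at -0.85. The 6 members not on the lower side were Mrpl3, Mrpl9, Mrpl16, Mrpl37, Mrps2 and Mrps18b, between 0.0013 and 0.11. Without ethanol 1 the median was 0.07 for the large subunit and 0.02 for the small subunit. Without ethanol 3 it was 0.08 for the large subunit and 0.06 for the small subunit. The members on the lower side then numbered 29 without ethanol 1 and 28 without ethanol 3. Without control 3 the median was 0.006 for the large subunit and 0.03 for the small subunit, with 38 members on the lower side.

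Transcript length moved with the library pattern. Mitochondrial ribosomal transcripts are short, with a median of 1043 bases. In the 39 shorter members the median deviation was -0.37, 0.42 and -0.31 on the log2 scale in the ethanol libraries, against -0.01, 0.04 and 0.20 in the control libraries. All 1374 tested genes of those lengths showed -0.32, 0.36 and -0.24 in the ethanol libraries, against -0.02, 0.03 and 0.20 in the control libraries. Those genes include the 39 shorter members. In the 39 longer members it was -0.11, 0.31 and -0.21 in the ethanol libraries, against -0.03, -0.01 and 0.05 in the control libraries. All 14400 longer tested genes lay at 0.04, -0.05 and 0.03 in the ethanol libraries, and within 0.02 of 0 in the control libraries. That set takes in every transcript over 1043 bases and was not matched to the lengths of the longer members. With trends on GC content and length removed in each library, the member medians shrank to -0.02, 0.09 and -0.12 in the ethanol libraries, against -0.05, 0.12 and -0.02 in the control libraries. In those values control 2 was the highest library.

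Genes that start beside a member gave another comparison. In the table, 22 members had a tested gene starting within 1000 bases upstream on the other strand, and 20 of these partners were not themselves members. Ethanol 2 was the highest library in 6 of those 20 partners, against 18 of the 20 members beside them. The median partner deviation was -0.08, -0.03 and -0.06 on the log2 scale in the ethanol libraries, against -0.03, -0.08 and 0.07 in the control libraries. Their members had -0.38, 0.36 and -0.22 in the ethanol libraries, against 0.00, 0.08 and 0.10 in the control libraries. The partners were longer, with a median transcript of 2770 bases against 1049 bases for their members. The remaining pair joins 2 members, Mrpl46 of the large subunit and Mrps11 of the small subunit, which start 42 bases apart on chromosome 7. Mrpl46 stood at 33.5, 50.4 and 29.5 CPM in the ethanol libraries, against 33.9, 37.3 and 37.9 CPM in the control libraries. Mrps11 stood at 33.9, 48.8 and 28.8 CPM in the ethanol libraries, against 37.9, 37.6 and 42.4 CPM in the control libraries. In both, ethanol 2 was the highest library and ethanol 3 the lowest. In all, 35 of 78 members overlap another gene, and the sources do not say if reads were counted by strand.

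The rest of the mitochondrial expression system was read from the same fit, in which none of the genes named here passed the test. A list of 6 genes held proteins of the same particle that carry other symbols, and Oxa1l, an inner-membrane insertase that binds the ribosome. Ethanol 2 was the highest library in 4 of the 6, the exceptions being Ptcd3 and Oxa1l. The list had median deviations of -0.28, 0.35 and -0.30 on the log2 scale in the ethanol libraries, against -0.05, -0.05 and 0.17 in the control libraries. It includes Dap3, the GTP-binding protein of the small subunit, at 106, 138 and 88.6 CPM in the ethanol libraries, against 99.3, 96.6 and 107 CPM in the control libraries. Gadd45gip1, near the exit tunnel of the large subunit, had a log2 fold change of -0.21, and Ptcd3, a small-subunit pentatricopeptide protein, had -0.16. Of the 6, 4 were on the lower side and 2 on the higher side.

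Among 27 assembly and ribosomal RNA modification factors, 17 were on the higher side in ethanol and 10 on the lower side, with a median log2 fold change of 0.05. Mterf3, which acts in mitochondrial transcription and large-subunit assembly, stood at 7.14, 12.6 and 10.9 CPM in the ethanol libraries, against 14.7, 18.3 and 15.4 CPM in the control libraries. All its ethanol libraries lay under its control libraries, as in 8.41% of all tested genes. Of the genes named below, Guf1 and Tfb2m also lay wholly under control. Taco1, Ears2, Peo1, Hspa9 and Tomm20 lay wholly above it, as in 9.35% of all tested genes. These genes, like Mterf3, were named for the smallest p-values of their lists, a choice that favours groups without overlap. The log2 fold change of Mterf3 was -0.66 (edgeR adjusted p = 0.439). Rpusd4, a pseudouridine synthase of the large ribosomal RNA, had 0.50. Of 22 translation factors, 12 were on the higher side and 10 on the lower side, with a median of 0.02. Guf1, a mitochondrial elongation factor GTPase, stood at 6.48, 8.96 and 17.7 CPM in the ethanol libraries, against 25.1, 18.9 and 20.9 CPM in the control libraries, a log2 fold change of -0.98. Taco1, the activator of Cox1 translation, had 0.79, and the elongation factor Tufm had 0.34. Of 17 aminoacyl-tRNA synthetases, 11 were on the higher side and 6 on the lower side, with a median of 0.05. The glutamyl enzyme Ears2 had 0.40 and the histidyl enzyme Hars2 had -0.30.

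Of 19 genes of mitochondrial DNA maintenance and transcription, 6 were on the higher side and 13 on the lower side, with a median log2 fold change of -0.07. Peo1, the replicative helicase Twinkle, had 0.45 and the transcription factor Tfb2m had -0.47. The DNA-packaging protein Tfam had -0.15 and the RNA polymerase Polrmt had -0.02. Of 14 regulators of mitochondrial biogenesis, 5 were on the higher side and 9 on the lower side, with a median of -0.02. The coactivator Ppargc1a had -0.02 and its relative Pprc1 had 0.50. Foxo3, a stress-responsive transcription factor, stood at 23.1, 3.51 and 14.4 CPM in the ethanol libraries, against 4.22, 3.40 and 2.62 CPM in the control libraries, so ethanol 2 lay among the controls. Of 21 import and protease genes, 10 were on the higher side and 11 on the lower side, with a median of -0.02. Ethanol 2 was the highest library in 13 of them. Their median deviations were -0.22, 0.29 and -0.21 on the log2 scale in the ethanol libraries, against -0.04, -0.03 and 0.07 in the control libraries, with ethanol 2 highest and ethanol 1 and 3 lowest as in the members. Hspa9, the matrix chaperone that pulls in precursors, had 0.38, and the outer-membrane receptor Tomm20 had 0.39.

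The members' pattern was also that of other abundant gene families. Ethanol 2 was the highest library in 73 of 76 cytosolic ribosomal protein genes. Their median deviations were -0.34, 0.57 and -0.30 on the log2 scale in the ethanol libraries, against -0.11, 0.00 and 0.18 in the control libraries. Of 79 nuclear genes of oxidative phosphorylation tested, 59 were highest in ethanol 2. Their medians were -0.37, 0.43 and -0.34 in the ethanol libraries, against -0.03, 0.01 and 0.28 in the control libraries. No test of a difference between these families and the members was made.

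**Figure D5:**
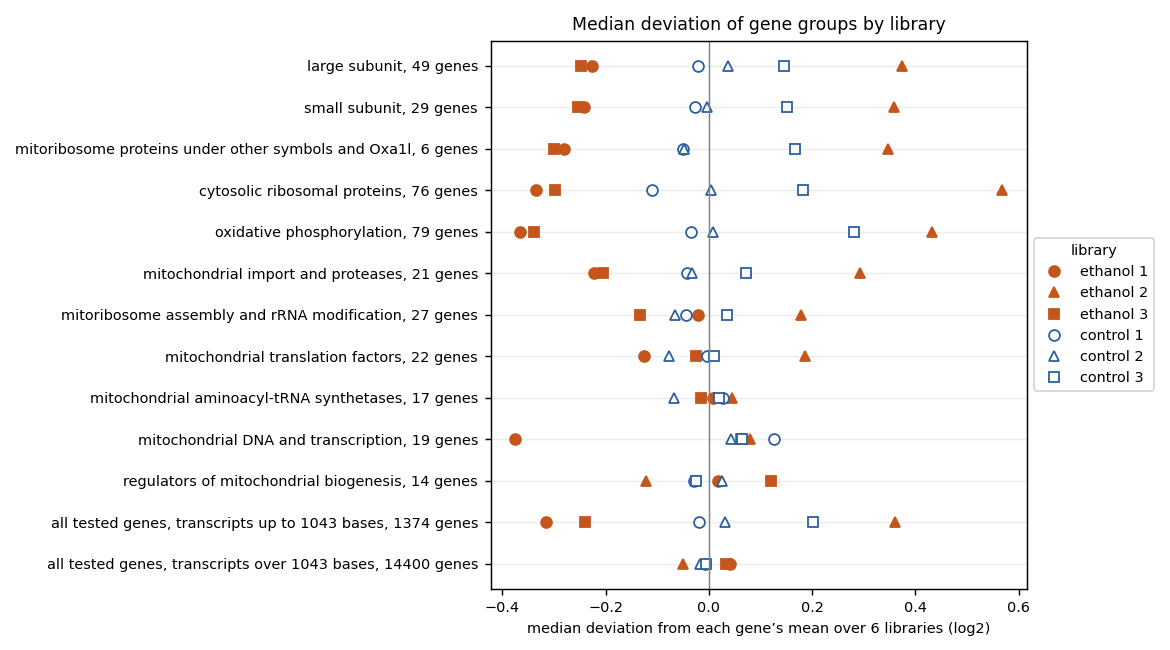
Median log2 CPM deviation from each gene's own mean, one row per gene group and one symbol per library, for both subunits, the other gene lists, and all tested genes with transcripts up to and over 1043 bases. Both subunits, cytosolic ribosomal proteins, oxidative phosphorylation, import and proteases and the shorter tested genes have ethanol 1 and 3 at the low end and ethanol 2 at the high end, while the longer tested genes lie near 0.

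The levels of cell type markers also varied between libraries. In bulk tissue, fewer cells of a type and less RNA per cell cannot be told apart. Set against the striatal label, the medium spiny neuron marker Drd1 was present in every library, at 47.2, 58.8 and 45.0 CPM in the ethanol libraries, against 37.2, 41.8 and 26.9 CPM in the control libraries. The summed medium spiny neuron markers, with 13 of 14 on the higher side in ethanol, were at 2895, 4348 and 2340.0 CPM in the ethanol libraries, against 2302, 2547 and 2130.0 CPM in the control libraries. Like the members, these sums were highest in ethanol 2. Summed microglial markers, with 10 of 12 on the higher side, ranged over 573 to 941 CPM in ethanol, highest in ethanol 2, and over 547 to 704 CPM in control, with Cx3cr1 between 41.4 and 62.0 CPM in every library. Astrocyte markers, 10 of 12 on the higher side, summed to between 4403 and 5336 CPM in ethanol and between 3885 and 4237 CPM in control. Oligodendrocyte markers, 10 of 12 on the lower side, summed to between 17955 and 23422 CPM in ethanol and between 21376 and 25347 CPM in control. Slc17a7, which marks cortical glutamatergic neurons, stood at 24.7, 9.42 and 56.0 CPM in the ethanol libraries, against 289, 58.2 and 102 CPM in the control libraries, and exceeded Drd1 in ethanol 3 and in all control libraries. The summed cortical list, with 7 of its 11 tested genes on the lower side, was at 1169, 1718 and 1122 CPM in the ethanol libraries, against 1332, 1390 and 1245 CPM in the control libraries. By that sum ethanol 2 was the highest library, although Slc17a7 was lowest there. Ethanol 2 was the highest library in only 3 of the 11 tested genes. The list's median deviations were -0.447, -0.448 and 0.144 on the log2 scale in the ethanol libraries, against 0.259, 0.122 and -0.209 in the control libraries. By the median deviation ethanol 2 was thus the lowest library. All 10 meningeal fibroblast markers were on the lower side, with sums of 47.3 to 55.8 CPM in ethanol and 59.7 to 107 CPM in control. Choroid plexus markers summed to between 403 and 441 CPM in ethanol and between 386 and 938 CPM in control, where Ttr reached 394 CPM in control 3. Endothelial and mural markers summed to between 283 and 309 CPM in ethanol and between 299 and 364 CPM in control. The part of tissue makeup in the members' pattern was not tested.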

How the data were processed

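Bulk mRNA sequencing of 6 mouse libraries was analysed from a table whose columns, per the file headers, hold counts and FPKM values for each RefSeq transcript. Build mm10 and the tool bcl2fastq are listed in the submitters' processing notes. The aligner's and counter's names were not given in the sources used here. What the authors deposited are estimated counts: each count equalled FPKM times length times library size, rounded up, for 100% of checked transcripts within 0.05 reads. The library size used there was derived from the same counts and FPKM values, and in every library it exceeded the sum of the counts. The deposited FPKM values gave levels per length, summed over a gene's transcripts. Counts were summed by gene identifier, and the planned count test was kept although the counts are estimates. Reads of isoforms, paralogs, pseudogenes and overlapping genes may be divided wrongly.

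Libraries held 36197592 to 67399599 reads in ethanol and 35898026 to 55672232 reads in control, where 3 reads equal 0.0445 to 0.0836 per 1000000 reads before TMM scaling. Genes passing edgeR's filter (minimum count 10) were fitted in edgeR 4.0.16 with TMM scaling and group alone, in a two-sided quasi-likelihood test with Benjamini-Hochberg adjustment at 0.05. The biological coefficient of variation was 0.252. Control 2 stood apart on the first principal component, with 35.7% of the variance. Deviations are log2 CPM, with a pseudocount of 0.5, minus each gene's mean over the libraries. GC and length trends were loess fits (span 0.3), with a GC value for 97% of tested genes. DESeq2 1.42.0, limma 3.58.1 and other scalings were alternatives, and the edgeR step was tested on simulated data.

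Members, gene lists and tests were chosen with earlier results of these data known. The rule for named genes took the members with the smallest p (8), the highest and lowest mean FPKM per subunit (3 and 2), the largest spread per subunit (2), and for each pathway list the genes with the smallest p (2). Tfam, Polrmt, Ppargc1a, Dap3 and Tufm were always named. Promoter windows came from RefSeq GRCm38.p6 and overlapping genes from an annotation of the same build, with motif letters chosen after values were seen.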

Additional observations from a re-analysis of the deposited data

How the results depend on the processing

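No member was called under any alternative run. The number of genes called in all was 0 except with DESeq2 (151) and in the fits that leave out a library, where it ranged over 0 to 211 (211 without ethanol 2, 1 without control 1). Over those fits the median log2 fold change ranged over -0.29 to 0.08 for the large subunit and -0.27 to 0.06 for the small subunit. On the lower side were 28 to 72 members (29 without ethanol 1, 28 without ethanol 3, 72 without ethanol 2, 38 without control 3). Scaling by total counts moved the medians to -0.13 and -0.15, with the median of all tested genes at -0.06, and limma-voom with sample weights moved them to -0.18 and -0.19, with 65 members on the lower side. With GC and length trends removed the small-subunit median was 0.01.

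The labels' replicate numbers were not treated as pairs in the main fit. Same-numbered libraries' deviations from their group means correlated at 0.146, -0.031 and -0.017, and those of differently numbered libraries at -0.217 to 0.188. Such correlations cannot exclude pairing, as the deviations of a group's 3 libraries depend on each other. With a replicate block 0 genes were called, the medians were -0.06 and -0.08, and 51 members were on the lower side. Assigning Mrps30 and Mrps18a to the large subunit and leaving out Mrps36, chosen after seeing the data, gave -0.03 and -0.07.

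Of the named members' log2 fold changes, none of which passed the test, several changed sign. Mrpl52 was -0.082 with limma-voom, -0.26 with sample weights, -0.073 with total counts, -0.0052 with upper-quartile scaling and -0.083 with the replicate block. Mrps33 was -0.0057, -0.13, -0.024 and -0.0035 with limma-voom, sample weights, total counts and the replicate block. Mrps30 was -0.042 with sample weights and -0.035 with total counts, and Mrps18a was -0.050 with sample weights. With trends removed Mrpl20 was 0.016, Mrps21 0.011 and Mrps18c 0.010, and with the block added 0.016, 0.013 and 0.0078. Leaving out a library gave Mrpl12 -0.39 to 0.079, Mrpl20 -0.35 to 0.020, Mrpl35 -0.041 to 0.17, Mrpl52 -0.46 to 0.20, Mrps12 -0.038 to 0.47, Mrps18a -0.16 to 0.33, Mrps18c -0.38 to 0.12, Mrps21 -0.54 to 0.015, Mrps30 -0.15 to 0.18 and Mrps33 -0.29 to 0.26. The causes of these changes of sign were not tested. With 3 libraries a group and a median SE of 0.21, small differences were not detectable.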
